A study of Mus musculus with 8 samples.

Results

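The genes described here encode the machinery that carries a newly made secreted protein from the ribosome through the endoplasmic reticulum (ER) to the Golgi. A list of 56 gene symbols was matched to the platform annotation of the array, and the probe set with the highest mean over the 8 arrays was used for each gene. A probe set was found for 55 of the 56 genes, out of 19505 named genes in all, and Pdia4 was not analysed here. No member had more than 1 probe set, so no choice between sets was needed.

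The arrays measured luminal cells sorted from mammary glands of mice, that is, the milk-making layer of the epithelium, on day 15 of pregnancy. There were 4 samples labelled control and 4 labelled a3a6KO, which the series design calls biological replicates, and no treatment other than tissue digestion, staining and sorting is labelled. The name a3a6KO refers to the integrin chains alpha 3 and alpha 6, encoded by Itga3 and Itga6, which form part of receptors for laminin in the basement membrane. The titles of the a3a6KO samples also carry the word Ctrl, so the groups follow the cell subtype label. The deleted parts of the genes, the Cre driver, the strain and the age of the mice are not given in these sources, nor is it said whether animals were pooled. The comparison asks how expression in luminal cells labelled as lacking both chains differs from that of control cells before lactation.

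A secreted protein starts its journey when the signal recognition particle (SRP) binds its signal peptide and docks the ribosome at the ER membrane. The chain enters through the Sec61 channel, loses its signal peptide to signal peptidase and receives N-linked sugars from the oligosaccharyltransferase. Chaperones and disulfide isomerases then fold it, vesicles coated with COPII take it towards the Golgi, and vesicles coated with COPI bring escaped ER proteins and cargo receptors back. Alveolar cells expand this machinery in pregnancy, ahead of the secretion of caseins and whey proteins.

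Several folding genes carried a known ER stress element in their promoters, which is shown as a known feature of this step. The pattern was chosen from prior knowledge of how chaperone genes are regulated. Its share among the folding genes is therefore a description and not an independent result. The element, called ERSE, reads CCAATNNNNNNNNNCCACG, where N is any base, and is a known binding site for the factors NF-Y and ATF6, through which the unfolded protein response raises chaperone genes. RefSeq promoter windows of GRCm38.p6 (250 bases before to 50 after each start) were matched for 47 of the 55 members by gene identifier. Both strands were searched. The ERSE was found in 6 of the 47 members (12.8%), against 37 of 27025 genes with a window (0.137%), and the 6 were among the 11 folding genes. Positions below give the first base in the gene's direction relative to the start, the sequences are turned so that they read from CCAAT, and the capitals mark the fixed bases of the element.
Hspa5, start -65, same strand: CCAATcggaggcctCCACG
Hsp90b1, start -212, same strand: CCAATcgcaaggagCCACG
Hsp90b1, start -107, opposite strand: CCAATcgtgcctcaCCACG
Calr, start -162, opposite strand: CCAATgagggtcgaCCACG
Canx, start -145, same strand: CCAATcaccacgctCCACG
Pdia6, start -98, same strand: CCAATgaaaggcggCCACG
Dnajc3, start -105, same strand: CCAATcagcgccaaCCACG

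The windows of the chaperone genes Hspa5 and Hsp90b1 show where the elements lie before the start of the gene. The bases before the start are printed in the direction of the gene, with the fixed bases of the ERSE in capitals, on whichever strand it was found.
Hspa5, chr2:34771840-34772089, plus strand: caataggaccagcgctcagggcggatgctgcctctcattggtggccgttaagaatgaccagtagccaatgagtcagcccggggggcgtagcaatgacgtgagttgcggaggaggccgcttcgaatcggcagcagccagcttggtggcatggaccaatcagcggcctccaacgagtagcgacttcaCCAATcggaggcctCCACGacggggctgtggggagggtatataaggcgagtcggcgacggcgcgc
Hsp90b1, chr10:86705445-86705694, minus strand: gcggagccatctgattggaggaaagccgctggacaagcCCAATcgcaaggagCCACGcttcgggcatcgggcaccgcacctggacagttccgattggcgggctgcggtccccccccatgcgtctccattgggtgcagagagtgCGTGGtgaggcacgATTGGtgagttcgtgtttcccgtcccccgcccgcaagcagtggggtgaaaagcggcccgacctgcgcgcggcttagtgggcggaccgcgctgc

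Other motifs were distributed differently over the members. The core of the element bound by XBP1, TGACGTGG, occurred in 5 members, namely Sec23a and Sec24d of the COPII coat and Copb1, Copb2 and Arf1 of the COPI step, and in 0 of the 11 folding windows, against 0.714% of all genes. The CCAAT box on its own, which is also the first part of each ERSE, occurred in all 11 folding windows and in 26 of the 47 members, against 41.1% of all genes. A match of letters is a description of the window and shows no binding.

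The members were well measured in these cells. On every array, 36 of the 55 genes (65.5%) were above background, where background is the 95th percentile of the array's 5222 negative control sets. Over all genes the share was 8.25%. A further 14 members exceeded it on some arrays, and 5 (Srprb, Sdf2l1, Sec23a, Sec13 and Mcfd2) on none, so these 5 differences rest on signals no brighter than many control sets. All values are deposited RMA log2 signals, and levels of different probe sets are not set against each other.

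The libraries carried the luminal marks of the sort, with some signal from markers of other cell types. All 11 luminal markers, Krt8 among them, and all 7 milk protein genes exceeded background on every array. So did 2 of 12 basal markers, Krt14 and Acta2, and the adipocyte marker Fabp4, at 8.94 to 11.42. On no array did 6 of 7 plasma cell, 10 of 11 leukocyte, 5 of 6 fibroblast, 5 of 6 adipocyte, 3 of 12 basal and 3 of 8 endothelial markers exceed it. Markers of basal cells were lower in a3a6KO in 12 of 12 genes, with a median of -0.59. Krt17, Oxtr and Cdh3 among them exceeded background on no array, and Myh11 and Mylk on 1 array of each group. Of the 12, 4 had an unadjusted p under 0.05 and 0 passed the adjusted threshold in limma. Over all genes, 50.1% were lower and 5.13% had an unadjusted p under 0.05. The sum of the basal markers' log2 levels ran from 72.4 to 92.7 in control and from 64.2 to 84.8 in a3a6KO. Their differences ran from -2.535 for Krt5 (SE 0.987) to -0.048 for Tagln, and the basal keratin gene Krt14 differed by -1.60 (SE 0.707). Trp63 differed by -2.43 (SE 0.641) without overlap between the groups, but exceeded background on only 1 control array and 0 a3a6KO arrays. The sum of the 8 endothelial markers ran from 34.7 to 51.5 and from 31.8 to 47.4. The 7 milk protein genes, cargo of this pathway, were all lower in a3a6KO, with a median of -0.24, 2 of 7 at an unadjusted p under 0.05 and 0 past the adjusted threshold in limma. The part of these markers in the results below was not tested. In bulk samples, fewer cells of a type and less RNA per cell cannot be told apart. Itga6 stood at 8.83, 8.73, 9.14 and 8.80 on the control arrays against 5.95, 3.65, 8.21 and 7.85 on a3a6KO 1 to 4. It was thus below every control array on all 4 a3a6KO arrays, but on a3a6KO 3 and 4 it stayed above background and nearer to the controls. Control arrays had Itga3 at 6.42 ± 0.80 against 5.15 ± 0.58 (SD, n = 4 each), with overlap between the groups. Itga3 exceeded background on only 1 control array and on 0 a3a6KO arrays. Whether the probes of either gene fall inside the deleted part is not known here.

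No member of the pathway changed between a3a6KO and control past the test. The limma fit over 19505 genes, with Benjamini-Hochberg adjustment, called 0 of the 55 members and 0% of all genes at an adjusted p under 0.05. The smallest adjusted p among the members was 0.944. The genes named in the label were not called either. Itga6 differed by -2.46 and Itga3 by -1.265, each with a limma adjusted p of 0.944. At an unadjusted p under 0.05 the fit held 1 member (1.82%), which was lower, against 5.13% of all genes (2.73% lower and 2.4% higher). In 0 of the 55 members did the values of the groups lie apart, against 2.94% of all genes. By the sign of the difference, taken as a3a6KO minus control throughout, 32 members were lower and 23 higher, with a median of -0.04, against 50.1% lower and a median of -0.0020 over all genes. Without control 4 the median of the members was 0.018.

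The precision of these differences was enough to bound most of them within 2-fold, but not within 1.5-fold. The 95% interval of the difference lay within 2-fold either way for 49 of the 55 members (89.1%), against 74.5% of all genes and 85.6% of the genes above background on every array. It lay within 1.5-fold for 23 members (41.8%), against 28.3% of all genes and 35.7% of the genes above background on every array. The 6 genes whose interval reached beyond 2-fold were Srprb, Spcs3, Pdia6, Sec23b, Sec13 and Copg1. The differences themselves ran from -0.47 to 0.40, and 24 of the 55 were under 0.1 in size. A p that misses the threshold does not show that a gene was at the same level in both groups.

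**Figure D1:**
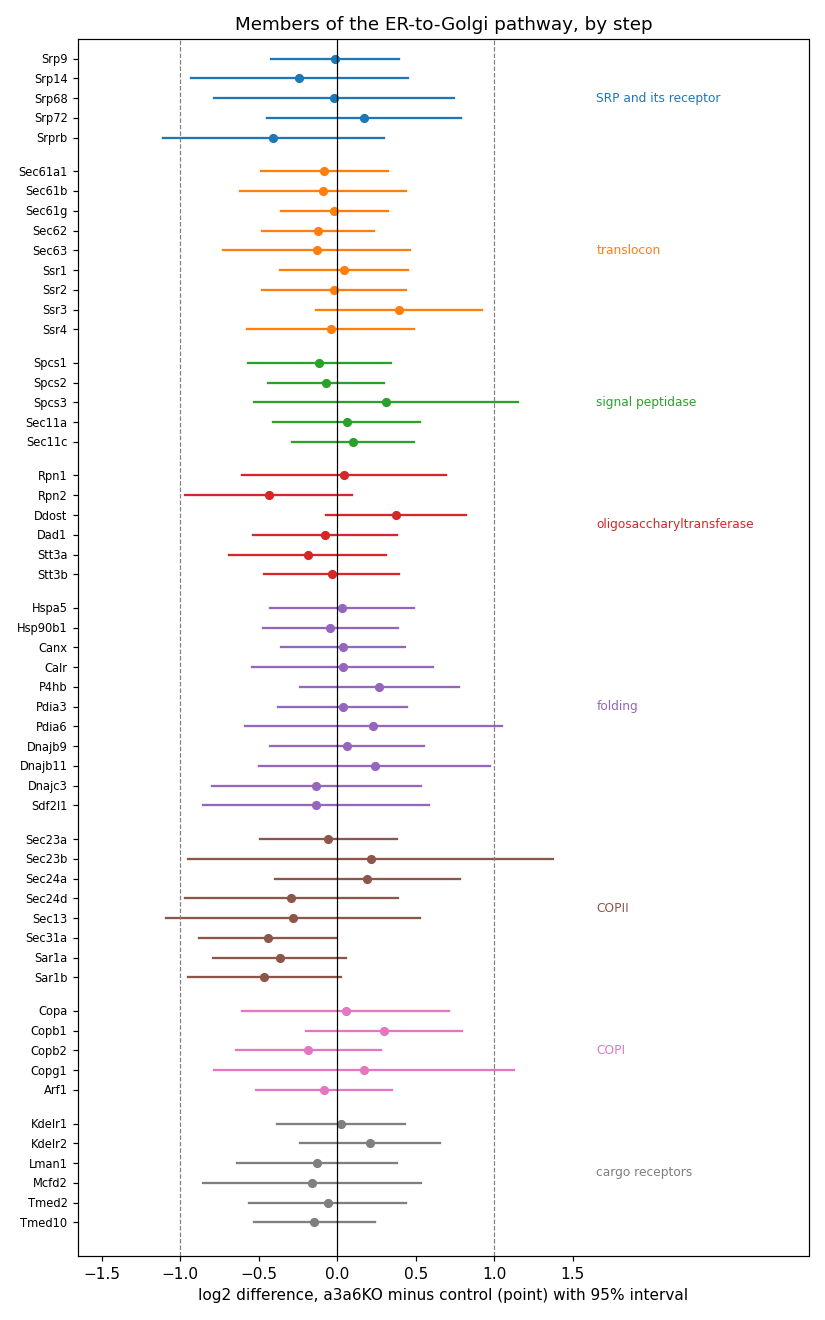
Log2 difference of each of the 55 members (point) with its 95% interval (line), grouped and coloured by step of the pathway. The dashed lines mark a 2-fold difference, and 6 intervals cross them, those of Srprb, Spcs3, Pdia6, Sec23b, Sec13 and Copg1.

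The genes of SRP and its receptor, which bring ribosomes to the ER, were close between the groups in median (-0.02, 4 of 5 lower) but scattered between arrays. The median was -0.21 without control 1, -0.14 without a3a6KO 3 and 0.03 without control 3. Srprb, the membrane anchor of the SRP receptor, was at 5.07, 4.92, 5.31 and 5.12 in control 1 to 4 and at 3.76, 4.62, 5.15 and 5.26 in a3a6KO 1 to 4. The difference of -0.41 (SE 0.313) came mostly from a3a6KO 1 and was -0.10 without it. Srp14, which with Srp9 forms the part of the particle that slows translation, stood at 7.65, 7.69, 8.17 and 7.69 in control and at 7.32, 7.15, 7.25 and 8.51 in a3a6KO. Here 3 of the a3a6KO arrays lay below every control array and the other above every one, and the difference was -0.24 (SE 0.306), or -0.56 without a3a6KO 4. Srp72, a subunit of the core of the particle, differed by 0.17 (SE 0.274) and by -0.04 without control 1. The remaining 2 genes, Srp9 and Srp68, differed by -0.01 and -0.02.

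The translocon, through which the chain enters the ER, was close between the groups, with a median of -0.04, 7 of 9 genes lower and all 9 intervals within 2-fold. Sec61a1, which encodes the channel itself, was at 8.05, 8.13, 8.34 and 8.46 in control and at 8.21, 8.23, 8.38 and 7.83 in a3a6KO, a difference of -0.08 (SE 0.181). The small subunits Sec61b and Sec61g differed by -0.09 and -0.02, and the partners Sec62 and Sec63, which also serve chains that enter after translation, by -0.12 (SE 0.158) and -0.13 (SE 0.263). All of these ranges overlapped. Among the subunits of the translocon-associated protein complex, Ssr1, Ssr2 and Ssr4 differed by 0.04, -0.02 and -0.04. Ssr3, the gamma subunit, was the exception in size, at 5.77, 6.22, 6.49 and 6.79 in control and at 6.46, 6.65, 6.79 and 6.95 in a3a6KO. It differed by 0.40 (SE 0.235, limma adjusted p = 0.946) and was above background on 2 arrays of each group.

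Signal peptidase genes did not differ in a shared direction, with 2 lower and 3 higher and a median of 0.06, or -0.02 without a3a6KO 3. The catalytic subunits Sec11a and Sec11c differed by 0.06 (SE 0.208) and 0.10 (SE 0.173), and Spcs1 and Spcs2 by -0.12 (SE 0.203) and -0.07 (SE 0.165). Spcs3, a subunit needed for the activity of the complex, split the a3a6KO arrays. It was at 6.94, 6.65, 6.42 and 6.54 in control, and at 6.13 and 6.32 in a3a6KO 1 and 2 but 7.59 and 7.75 in a3a6KO 3 and 4. Both low values lay below every control array and both high values above every one, and the difference of 0.31 had an SE of 0.374. The high arrays, a3a6KO 3 and 4, are also those with the higher Itga6 of that group, and the relation was not tested.

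Oligosaccharyltransferase subunits, which attach N-linked sugars to milk glycoproteins, differed in opposite directions within the same complex, with a median of -0.06, or 0.02 without a3a6KO 1. Rpn2 was at 9.05, 8.17, 8.35 and 8.33 in control and at 7.90, 7.80, 8.01 and 8.44 in a3a6KO. Ddost, a subunit that holds the complex together, was at 7.55, 7.88, 7.37 and 7.40 in control and at 7.56, 8.14, 7.85 and 8.14 in a3a6KO. Rpn2 was thus lower on 3 of 4 a3a6KO arrays than on any control array, and Ddost higher on 2 of 4, yet neither passed. Rpn2 differed by -0.44 (SE 0.236) and Ddost by 0.37 (SE 0.198), with a limma adjusted p of 0.944 for each and an exact permutation p of 0.114 for each. The difference of Rpn2 was -0.25 without control 1. The catalytic subunits Stt3a and Stt3b differed by -0.19 (SE 0.222) and -0.04 (SE 0.191), Dad1 by -0.08 and Rpn1 by 0.04.

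The folding step, with the chaperones and disulfide isomerases, had 8 of 11 members higher in a3a6KO, but by small amounts, with a median of 0.03, or -0.05 without a3a6KO 3 and -0.0040 without control 3. Hspa5, the ER chaperone BiP, was at 10.24, 10.53, 9.65 and 10.20 in control and at 10.27, 10.28, 10.14 and 10.05 in a3a6KO, a difference of 0.03 (SE 0.204) with a 95% interval of -0.43 to 0.49. Control 3 was lowest of all arrays, and the 4 a3a6KO values fell inside the control range. Calr, the lectin chaperone calreticulin, was also lowest in control 3, with 9.21, 9.25, 8.51 and 9.43 in control, and stood at 9.48, 9.21, 9.22 and 8.62 in a3a6KO, a difference of 0.03 (SE 0.257). Hsp90b1, the ER form of the chaperone Hsp90, stood at 9.76, 9.39, 9.26 and 9.79 in control and at 9.70, 9.23, 9.62 and 9.47 in a3a6KO, a difference of -0.04 (SE 0.19). Canx, the membrane-bound lectin chaperone calnexin, differed by 0.04 (SE 0.176).

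Control 3 was the lowest control array for 6 of the 11 folding genes, namely Hspa5, Hsp90b1, Canx, Calr, Dnajb9 and Dnajb11, and control 4 the highest for 6. Over all 55 members, control 3 was lowest for 14 and highest for 16, and control 4 was highest for 21. The margin to the next control array was small for Canx (8.34 against 8.41), Dnajb9 (6.63 against 6.66) and Dnajb11 (6.95 against 7.01). Of those 6 low in control 3, the windows of Hspa5, Hsp90b1, Canx and Calr held the ERSE printed above, and those of Dnajb9 and Dnajb11 did not. Pdia6 and Dnajc3, which also hold an ERSE, were not lowest there. In a3a6KO the highest array for 6 of the 11 was a3a6KO 3, which was highest for 16 of the 55 members. After removal of group means, the median correlation over the 8 arrays was 0.25 (-0.38 to 0.8) for the 15 pairs with an ERSE in both windows. It was 0.16 (-0.96 to 0.92) for the other 40 folding pairs, a description with no test.

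Among the isomerases, P4hb, which encodes protein disulfide isomerase, had the smallest p of the folding step, at 8.96, 9.33, 9.67 and 9.38 in control and 9.26, 9.44, 10.06 and 9.65 in a3a6KO. It differed by 0.27 (SE 0.225) with overlap between the groups, and by 0.11 without a3a6KO 3. Pdia3, which works with the lectin chaperones, differed by 0.03 (SE 0.183), and Pdia6 by 0.23 (SE 0.363), or -0.08 without a3a6KO 4, where it stood at 8.15. Of the J-domain helpers of BiP, Dnajb11 differed by 0.24 (SE 0.327), Dnajb9 by 0.06 (SE 0.218) and Dnajc3, which is also known as an inhibitor of stress kinases, by -0.13 (SE 0.297). Sdf2l1, at or under background on every array, differed by -0.13 (SE 0.32), with 1 control array, control 3, at 5.64 and the other 7 arrays between 4.01 and 4.64.

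**Figure D2:**
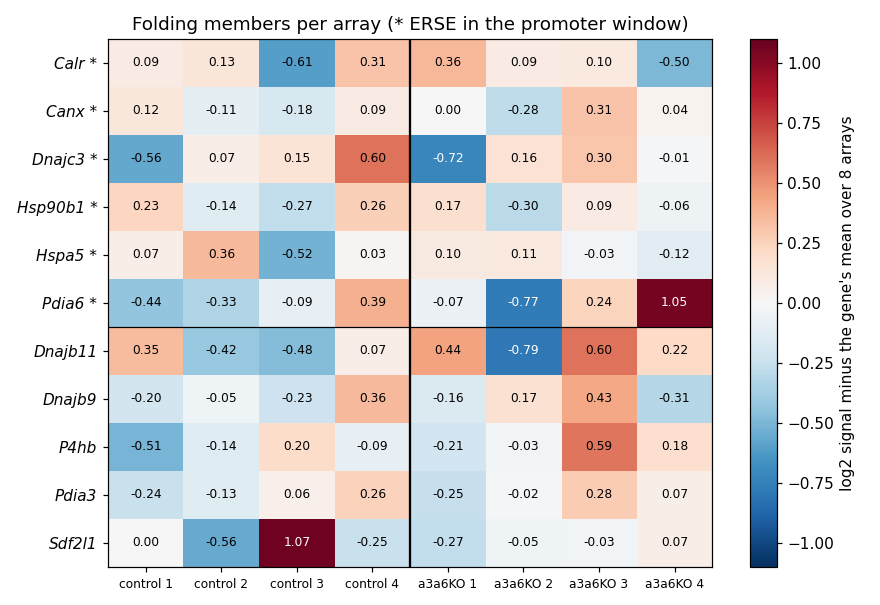
Log2 signal of the 11 folding members on each array minus the gene's mean over the 8 arrays (colour and printed value), with the 6 genes whose promoter window holds an ERSE above the line. Hspa5 and Calr are lowest in control 3, and no gene separates the control from the a3a6KO arrays.

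COPII genes had a median of -0.29, with 6 of 8 members lower in a3a6KO and 0 called. With all arrays this was below the median of the other steps, but without control 4 it was -0.086, level with cargo receptors (-0.086) and oligosaccharyltransferase (-0.087). Sec31a, which builds the outer cage of the coat, stood at 9.20, 9.07, 9.41 and 9.53 in control and at 8.96, 9.18, 8.78 and 8.52 in a3a6KO. Of these, 3 a3a6KO arrays lay below every control array. It was 1.36-fold lower (-0.44, SE 0.194, 95% interval -0.88 to -0.0070), the only member with an unadjusted p under 0.05 (limma p = 0.0473, adjusted p = 0.944, exact permutation p = 0.0571). With replicate number as a block, with centred arrays or with array weights, 0 members had an unadjusted p under 0.05. With array background as a covariate, chosen after the data were seen, Sec31a was no longer under 0.05 and the 1 member that was is Ssr3, which did not pass the adjusted threshold.

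The small GTPases Sar1a and Sar1b, which start the coat by binding the ER membrane, leaned the same way. Sar1a was at 8.32, 8.12, 8.31 and 8.20 in control and at 8.20, 7.59, 8.07 and 7.62 in a3a6KO, a difference of -0.37 (SE 0.187). Sar1b was at 6.74, 7.28, 7.05 and 6.84 in control and at 6.02, 6.59, 6.59 and 6.85 in a3a6KO, a difference of -0.47 (SE 0.217), and was above background on 3 of the control and 1 of the a3a6KO arrays. In each gene 3 of the 4 a3a6KO arrays lay below every control array, and the exact permutation p was 0.0857 for each. Each of Sec31a, Sar1a and Sar1b kept a negative difference in every alternative and without each single array, within -0.58 to -0.27. Limma adjusted p-values ran from 0.786 to 0.987. The replicate block, omission of dim genes, mean probe sets and another variance prior could not change these differences. Their sign in those alternatives was therefore fixed in advance.

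The other COPII genes were more variable. Sec23b, of the inner coat, ran from 6.77 to 8.86 in control and from 6.84 to 8.73 in a3a6KO (SD 0.88 and 0.87), so its difference of 0.21 had an SE of 0.515. The cargo-binding subunits Sec24a and Sec24d differed by 0.19 (SE 0.262) and -0.29 (SE 0.301), Sec13 of the outer cage by -0.28 (SE 0.359) and Sec23a by -0.06 (SE 0.193). Control 4, where the mean COPII level was highest, also had the highest sums of basal and endothelial markers, and their part in the COPII values was not tested.

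**Figure D3:**
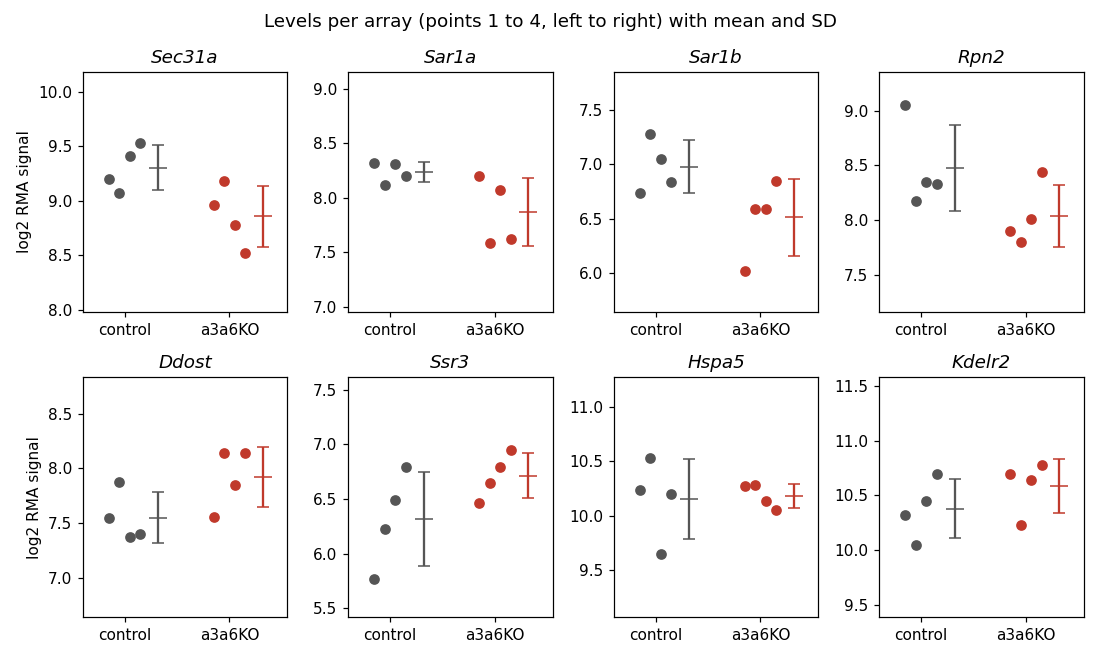
Log2 RMA signal of 8 members on each array (points) with the group mean and SD (bars, n = 4), control in grey and a3a6KO in red; every panel spans the same log2 range around its own mean. Sec31a, Sar1a and Sar1b each have 3 a3a6KO arrays below all control arrays, and the groups overlap in all 8 genes.

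The COPI step, which returns material from the Golgi to the ER, showed differences of both signs, with 2 of 5 lower and a median of 0.05, which was -0.01 without a3a6KO 1, -0.03 without control 1, -0.06 without control 3 and -0.02 with dim genes left out. Copb1 and Copb2, the beta and beta-prime subunits of coatomer, differed in opposite directions, by 0.30 (SE 0.221) and -0.19 (SE 0.206). Copb1 was at 6.76, 7.22, 7.12 and 6.59 in control and at 6.82, 7.52, 7.11 and 7.43 in a3a6KO. Copa, the alpha subunit, differed by 0.05 (SE 0.293), with control 2 at 7.99 and the other 7 arrays between 6.51 and 7.37. Arf1, the GTPase that recruits the coat, differed by -0.09 (SE 0.193), and Copg1 by 0.17 (SE 0.424), with control 3 at 6.59 and its other arrays between 4.70 and 5.94.

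Cargo receptors were close between the groups, with 4 of 6 lower and a median of -0.10, or 0.09 without a3a6KO 1. Kdelr2, a receptor that retrieves chaperones ending in a KDEL-type signal, was at 10.32, 10.05, 10.45 and 10.70 in control and at 10.70, 10.23, 10.64 and 10.78 in a3a6KO, a difference of 0.21 (SE 0.199). The related Kdelr1 differed by 0.02 (SE 0.182). Lman1 and Mcfd2, which together carry selected glycoproteins out of the ER, differed by -0.13 (SE 0.226) and -0.16 (SE 0.307), and Lman1 was above background on 2 of the control and 1 of the a3a6KO arrays. Tmed2 and Tmed10, p24 proteins that cycle with both kinds of vesicle, differed by -0.06 (SE 0.223) and -0.15 (SE 0.171).

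The mean level of the members varied more between arrays of a group than between the groups. Each gene's log2 values were centred on its mean over the 8 arrays and then averaged over the members. For control 1 to 4 this average was -0.09, -0.07, 0.07 and 0.14, and for a3a6KO 1 to 4 it was -0.12, -0.12, 0.06 and 0.13. The group means were 0.014 ± 0.11 and -0.014 ± 0.128 (SD, n = 4). The background of the same arrays, the 95th percentile of the negative control sets, was 6.90, 6.68, 6.38 and 6.50 in control and 6.76, 6.66, 6.62 and 6.45 in a3a6KO. The 4 arrays with the lowest background were the 4 with a mean above 0, in both groups. Among them are a3a6KO 3 and 4, which also had the higher Itga6. In both groups the mean was lower on arrays 1 and 2 than on arrays 3 and 4. Whether the replicate numbers mark a batch was not tested. The mean over the 1573 other genes above background on every array was -0.03 in control 3, -0.02 in a3a6KO 3, 0.02 in control 4 and 0.03 in a3a6KO 4, and between -0.01 and 0.01 on the other 4 arrays. Quantile normalization leaves such a mean over many genes little room to vary. The part of array background in the members' levels was not tested. With background as a covariate in the fit, chosen after the data were seen, the median difference of the members was -0.03 and 0 members were called. Background was similar in the 2 groups, so this fit could shift the group difference only little. It does not test the levels of single arrays.

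Within this spread some steps moved together in a3a6KO, but not all of them. The means of all steps but COPII and COPI were negative on a3a6KO 1 and 2 and positive on a3a6KO 4. They ran from -0.377 (SRP) to -0.054 (folding) on a3a6KO 1, and from 0.058 (folding) to 0.307 (signal peptidase) on a3a6KO 4. In control, the signs of the same steps differed on every array. Over all 1485 pairs of members, the median correlation over the 8 arrays after removal of group means was 0.09, and by step the median ran from 0.00 in COPI to 0.22 in folding. Over pairs of the 36 members above background on every array it was 0.05, against 0.01 over pairs of all 1609 genes above it on every array. These are descriptions with no test. The mean of the COPII genes was highest in control 4 (0.46) and lowest in control 2 (-0.27), while that of the COPI genes was lowest in control 1 (-0.32).

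**Figure D4:**
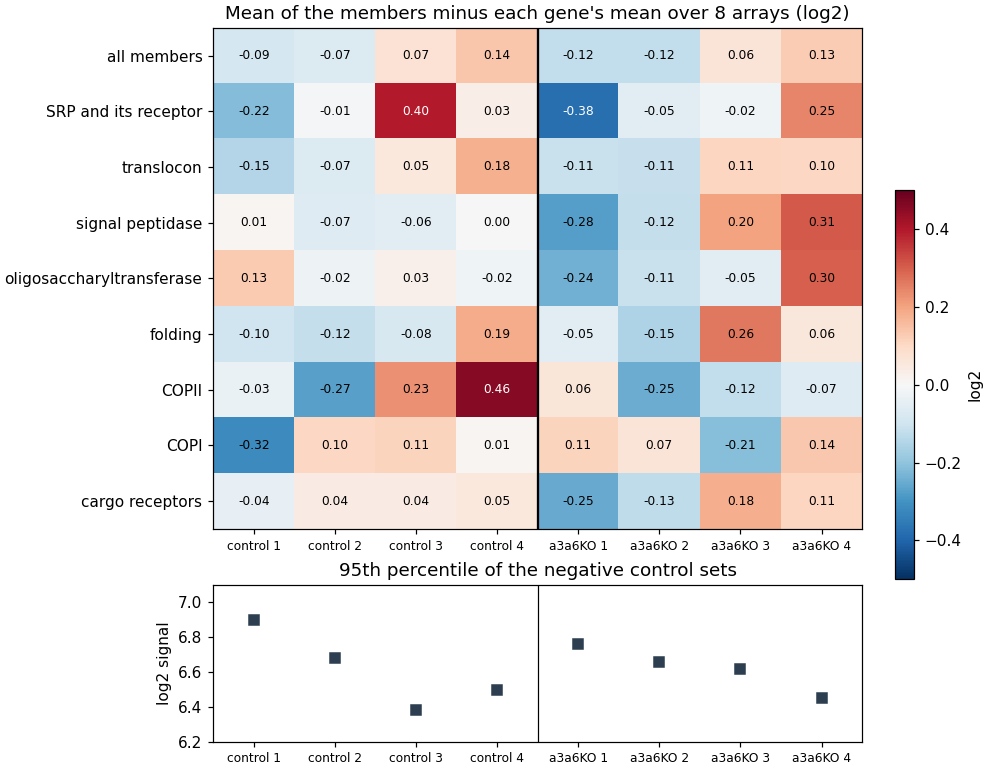
Upper panel, mean over the members of each step of the log2 signal minus the gene's mean over the 8 arrays (colour and printed value); lower panel, 95th percentile of the negative control sets of each array (log2 signal). Over all members the mean is above 0 on control 3 and 4 and on a3a6KO 3 and 4, the arrays with the lowest background.

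The wider pathway gave the same count of calls. Of 83 further genes measured in 7 lists of the same steps, glycan processing, and ER-to-Golgi tethers and SNAREs, 0 passed, 6 had an unadjusted p under 0.05 (5 lower, 1 higher; 7.23% against 5.13% of all genes), 51 were lower and the median was -0.12. Lman2, a lectin cargo receptor related to Lman1, was at 5.75, 6.23, 6.39 and 6.31 in control and at 5.60, 5.25, 5.31 and 5.45 in a3a6KO, a difference of -0.77 (SE 0.188). Rab1b, a GTPase of ER-to-Golgi traffic, was at 6.90, 6.74, 6.93 and 7.0 in control and at 7.34, 7.38, 7.03 and 7.53 in a3a6KO, a difference of 0.43 (SE 0.164). These were the only 2 of the 83 genes (2.41%) whose groups did not overlap, against 2.94% of all genes, and both had a limma adjusted p of 0.944. Lman2 exceeded background on 1 array.

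In the wider cargo receptor list 12 of 16 genes were lower, with a median of -0.20, and Tmed4, another p24 protein, differed by -0.77 (SE 0.301). In the wider folding list 8 of 16 were lower. Hyou1, an exchange factor of BiP, differed by -0.997 (SE 0.44) and the isomerase gene Pdia5 by -0.52 (SE 0.223). Hyou1 exceeded background on 2 control arrays and on no a3a6KO array, and Pdia5 on no array of either group. Preb, which loads Sar1 with GTP and so starts the COPII coat, stood at 8.57, 9.58, 9.71 and 9.53 in control and at 8.36, 9.21, 8.95 and 7.01 in a3a6KO, a difference of -0.97 (SE 0.467) with an interval of -2.02 to 0.09. The alpha subunit of the SRP receptor, listed as Srpr, differed by -0.38 (SE 0.233). In glycan processing, Tusc3 differed by 0.32 and Mogs by -0.44, and in the COPII list Sec24b by 0.71. In the COPI list Arfgap2 differed by -0.48 and Arfgap3 by -0.27, in the channel list Sec61a2 by -0.32, and among SNAREs Gosr2 by 0.50. Limma adjusted p-values ran from 0.944 to 0.956 for these genes and for the others of this paragraph. Tusc3, Sec61a2 and Arfgap3 exceeded background on no array, Mogs on 1 control array and Gosr2 on 1 a3a6KO array.

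Regulators of the unfolded protein response, which control many of these genes, were split, 5 of 10 higher. Xbp1, whose spliced product drives secretory genes, was at 8.81, 9.03, 8.82 and 8.69 in control and at 8.32, 8.03, 8.94 and 8.47 in a3a6KO. Of these, 3 a3a6KO arrays lay below every control array and 1 within the control range, and the difference was -0.40 (SE 0.211, limma adjusted p = 0.944). Atf6b differed by 0.56 (SE 0.404). The array values do not tell spliced from unspliced Xbp1.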

How the data were processed

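Expression was measured on Affymetrix arrays from 500 pg of total RNA per sample, amplified and labelled with biotin. The authors deposited log2 values per probe set and array, made with Affymetrix Expression Console and RMA per the submitters' processing notes, with versions and genome build not given in the sources used here. RMA normalizes by quantiles, which removes a shift shared by most genes. Gene names came from the platform annotation of GEO (19572 of 28846 with 1 symbol, 0 with several). Genes with several sets took the set with the highest mean, which left 19505.

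The comparison used R 4.3.3 with limma 3.58.1 and fitted group alone over the 8 arrays by lmFit and eBayes (two-sided), adjusted by Benjamini-Hochberg over all genes with a threshold of 0.05. Single genes were also given an exact two-sided permutation test over 70 assignments, whose smallest p is 0.0286. The fit was tested on simulated data. Array number limits precision; the median SE was 0.234 over genes. Replicate numbers in the titles were not treated as pairs, since the labels do not say that they pair samples. Over all genes the correlations of same-numbered samples were -0.061 to 0.039. Named genes were the 3 members of smallest p in each step, Hspa5, Sec61a1, Lman1 and Kdelr2, the 2 genes of smallest p in each wider list, Xbp1, and genes that check labels and sort; remaining members were added for completeness. The members and lists were chosen with earlier results of these data known. Alternatives were centring, cyclic loess, omission of dim genes, mean probe sets, another variance prior, array weights, the replicate block and leaving out each array.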

Additional observations from a re-analysis of the deposited data

Results flagged for a closer look

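In 128 groups of 4 values (the 55 members, the mean of all members and the means of the 8 steps, in each group), 10 (7.81%) held a value that stood apart from the other 3 by Dixon's test at the 95% level, where chance gives about 5%. Control 3 stood high for Srp14 (8.17, next 7.69), Lman1 (6.90, next 6.68) and Tmed10 (9.46, next 9.01). Control 4 stood high for Sec62 (8.70, next 8.54), Spcs1 (9.04, next 8.87) and the mean of the folding genes (0.186, next -0.081). Control 2 stood low for Sec24a (6.86, next 7.66), and control 1 for the mean of the cargo receptors (-0.042, next 0.04). In a3a6KO, Srp14 stood high on array 4 (8.51, next 7.32) and Dad1 low on array 1 (9.27, next 9.92).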

How the results depend on the processing

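Over 16 alternatives, limma called 0 genes and 0 members in each, with 929 to 1061 genes at an unadjusted p under 0.05 where all genes were tested and 165 of 2774 with dim genes left out. The number of members with an unadjusted p under 0.05, 1 in the fit reported, was 0 with the replicate block, 0 with arrays centred on their median, 0 with array weights and 0 to 3 when single arrays were left out. The replicate block changed no other call, and over all genes 1 of 8 samples correlated best with its own number. The mean of the members nevertheless followed the replicate number in a similar way in both groups. Whether the numbers mark a batch was not tested. Members lower in a3a6KO numbered 27 to 37 without single arrays, and 24 of 46 with dim genes left out. The median difference of the members ran from -0.08 to 0.02 without single arrays. Step medians that changed sign without some single array were those of cargo receptors (-0.11 to 0.09, past the spread of its score without a3a6KO 1), SRP (-0.206 to 0.028), signal peptidase (-0.022 to 0.128), oligosaccharyltransferase (-0.142 to 0.016), folding (-0.054 to 0.123) and COPI (-0.063 to 0.126). Those of the translocon (-0.122 to -0.017) and COPII (-0.385 to -0.086) did not. With arrays centred the SRP median was 0.005, and with dim genes left out that of COPI was -0.017. Of the 26 named members, 7 changed sign in some setting, in each case when an array was left out: Srp72 (-0.04 to 0.357), Sec63 (-0.308 to 0.018), Pdia6 (-0.083 to 0.524), Arf1 (-0.173 to 0.057), Lman1 (-0.336 to 0.011), Hspa5 (-0.138 to 0.155) and Sec61a1 (-0.155 to 0.028). The replicate block, omission of dim genes, mean probe sets and the other variance prior leave a member's difference unchanged, so no sign could change there. The cause of the sign changes was not tested. Signal over background limits the 5 members never above it.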
